A study of Mus musculus with 6 samples.

Results

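The PYHIN genes, called the Ifi200 family in mice, form a single cluster on chromosome 1, and 9 of them were examined here in infarcted mouse hearts: Aim2, Gm4955, Pyhin1, Ifi204, Mndal, Mnda, Ifi203, Ifi202b and Ifi205. They were chosen by symbol as genes of this family, with the condition that the mean normalized count over all hearts be at least 1. All 9 are among the 26012 genes of the table, and 8 had such a mean. Ifi202b did not, with a mean of 0.323, whereas the lowest mean among the others was 155, for Gm4955. The symbols were picked with earlier results of these libraries known, so the shared direction of the members is a description of these hearts and not independent support for it.

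RNA was sequenced from the ventricles of 6 male C57BL/6 mice, 8 weeks old, collected 4 days after myocardial infarction (MI). All 6 had their left anterior descending coronary artery tied off, and all 6 received 10 μg of a synthetic small RNA duplex by injection into the heart. The duplex was a control mimic in 3 hearts and a mixture of miR-19a and miR-19b mimics in the other 3, so no heart lacked either the infarct or an injection. Whole ventricular tissue mixes cardiomyocytes, fibroblasts, vessel cells and infiltrating leukocytes, and for every difference in the text fewer cells of a type and less RNA per cell cannot be told apart. Mimics are not measured by polyadenylated RNA libraries, so the dose that reached each heart was not checked from these data.

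PYHIN proteins join a pyrin domain, which binds other pyrin domains, to HIN domains, which bind DNA. Aim2 senses double-stranded DNA in the cytosol and, with the adaptor Pycard (ASC), builds an inflammasome that activates caspase-1, whereas several Ifi200 proteins act on transcription in the nucleus or pass DNA signals to STING. Most genes of the family are induced by interferons and are known for their expression in macrophages and other leukocytes, which enter the heart after an infarct.

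The injected molecules share a seed, the stretch that pairs with target transcripts. The mature sequences below are those of RefSeq (GRCm38.p6), with the seed, bases 2 to 8, in capitals. miR-19a-3p lies at chr14:115044048-115044070 and miR-19b-3p at chr14:115044358-115044380, both on the plus strand.
mmu-miR-19a-3p: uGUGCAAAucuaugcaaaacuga
mmu-miR-19b-3p: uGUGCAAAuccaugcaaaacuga
They differ at 1 of 23 bases, U11C counted from the 5′ end with the base of miR-19a first, which is outside the seed.

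The deposited values are normalized counts, the reads of a gene over the size factor that the authors computed for the library. Between 19398196 and 23645308 reads per heart fell on genes, and each of the 8 members rested on at least 59 reads in every heart. A pair of libraries stood apart before any member was considered. Genes of skeletal muscle, a list of 6, summed to 2282 normalized counts in miR-19a/19b mimic replicate 1, against 28.3 to 69.2 in the other 5 hearts. miR-19a/19b mimic replicate 3 differed from the other hearts of its group with a chi-square per degree of freedom of 121 and 135 over genes, where replicates 1 and 2 of that group differed with 11.2, and its summed cardiomyocyte markers were at 52.9% of the control mimic mean against 157% and 142% in replicates 1 and 2. Results are therefore also given without these hearts.

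The mean was lower in miR-19a/19b mimic hearts than in control mimic hearts for 7 of the 8 members, and Ifi205 was the exception. On the log2 scale the same 7 were lower, where 49.22% of all genes with a mean of at least 1 were. Groups were compared with limma on log2(normalized count + 1), fitted over all 21126 genes with a mean of at least 1, with p-values adjusted over all of them by the Benjamini-Hochberg method. At an adjusted p under 0.05, 0 of the 8 members were called in limma, against 0% of all genes in either direction, with a smallest adjusted p over all genes of 0.396. DESeq2, run on the whole reads recovered from the normalized counts, called 1 member, Gm4955, as lower, against 0.198% of the genes it tested, and edgeR's quasi-likelihood test called 0. At an unadjusted p under 0.05 in limma, 6 of the 8 members were lower and 0 higher, where 2.63% of all genes tested were lower and 1.39% higher. In 5 of the 8 members all 3 miR-19a/19b mimic hearts lay below all 3 control mimic hearts, as for 5.3% of all genes, and in 0 of the 8 did they lie above, as for 3.9% of all genes. The median log2 difference (miR-19a/19b mimic minus control mimic) over the 8 members was -0.43, and over all genes tested it was 0.0041.

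**Figure D1:**
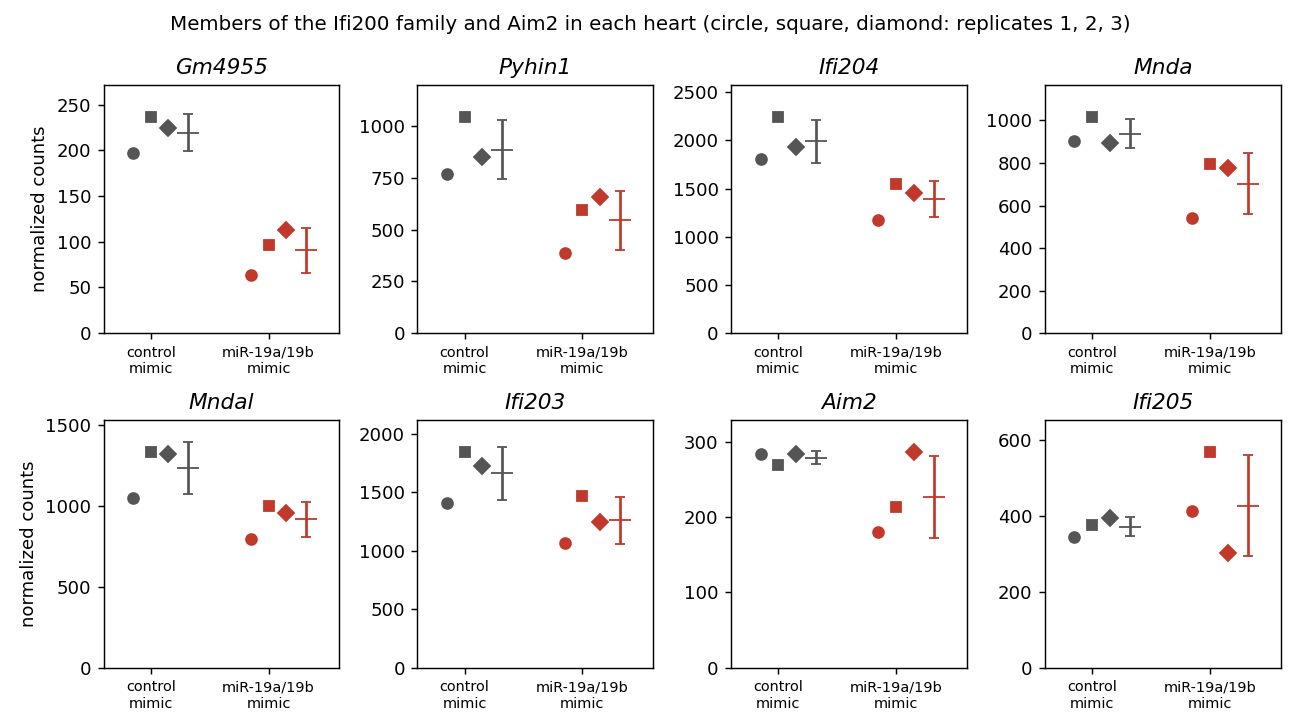
Normalized counts (y axis, from 0) of the 8 members in each of the 3 control mimic hearts (grey) and 3 miR-19a/19b mimic hearts (red), with the mean and SD of each group as a bar beside the points. The groups do not overlap for Gm4955, Pyhin1, Ifi204, Mnda and Mndal, and they overlap for Ifi203, Aim2 and Ifi205.

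Together the 9 members had 6761, 8361 and 7632 normalized counts in control mimic replicates 1, 2 and 3. The miR-19a/19b mimic hearts, in the same order, had sums of 4626, 6285 and 5787. Every miR-19a/19b mimic heart lay below every control mimic heart, and the mean sum was at 73.4% of the control mean. The SDs of single hearts in both groups, propagated to this ratio, came to 13.6 percentage points. That is a spread of hearts and not an error of the group means. Ifi204, the most abundant member, took between 24.6% and 26.8% of the sum in all 6 hearts, and without it the ratio was 74.6%. The ratio, recomputed with 1 heart at a time left out, stayed between 68.6% and 79.6%, the latter without miR-19a/19b mimic replicate 1.

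Levels of different genes were compared per kilobase of exons. Over the 3 control mimic hearts (mean ± SD) the level was 559 ± 63.2 normalized counts per kilobase for Ifi204 and 526 ± 37.4 for Mnda, which overlapped in range. Mndal followed at 359 ± 46.9, below Mnda and above Pyhin1 in each of the 6 hearts. Pyhin1 at 250 ± 39.9 and Ifi203 at 248 ± 33.4 overlapped. Per length of the longest transcript instead, Mndal (610) stood above Mnda (526) and Ifi203 (442) above Pyhin1 (258), so these places in the order depend on the length used. The remaining 3 were much lower, with Ifi205 at 89.0 ± 5.98, Aim2 at 79.6 ± 2.33 and Gm4955 at 72.3 ± 6.67. Aim2 and Gm4955 overlapped in the control mimic hearts, whereas Ifi205 lay above Aim2 there. Ifi202b, whose protein lacks a pyrin domain and antagonizes Aim2, had 0 reads in each control mimic heart and 1 read each in miR-19a/19b mimic replicates 1 and 3. Both groups are under the limit of 3 reads that a count of 0 allows, so no fold is given for it.

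**Figure D2:**
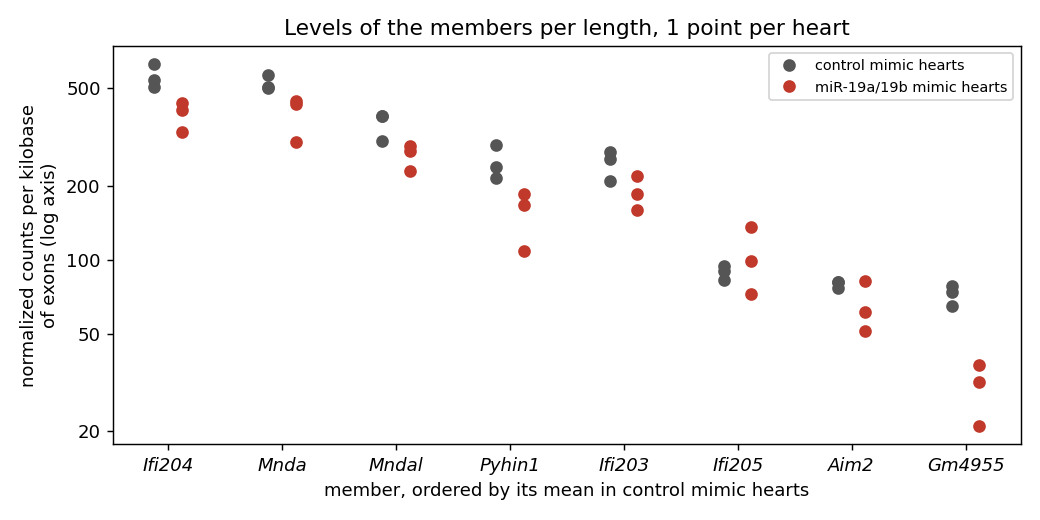
Normalized counts per kilobase of exons (y axis, log scale) of the 8 members, ordered by their mean in control mimic hearts, with 1 point per heart. Ifi204 and Mnda lead, at 501 or more in every control mimic heart (grey), and Gm4955 has the lowest miR-19a/19b mimic hearts (red), at 20.9 to 37.1.

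Gm4955, named Ifi206 in newer annotation, showed the largest difference of the 8. The gene (ENSMUSG00000037849) lies on the minus strand at chr1:173468509-173491041, in the coordinates of the table, which are those of GRCm38. Control mimic replicates 1, 2 and 3 had 196.7, 236.2 and 224.2 normalized counts. The miR-19a/19b mimic replicates 1, 2 and 3 had 63.5, 95.9 and 112.4. The highest miR-19a/19b mimic heart was thus well below the lowest control mimic heart, and the group mean was at 41.4% of the control mean. The log2 difference was -1.30 (standard error 0.21), with an unadjusted p of 0.0001997, the 10th smallest of all genes tested, and an adjusted p of 0.422 with limma. DESeq2 gave an adjusted p of 0.000273 for the same gene and edgeR's quasi-likelihood test 0.433. The difference ranged from -1.47 to -1.07 with each heart left out in turn, with an unadjusted p under 0.05 in all 6 fits.

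Pyhin1 (ENSMUSG00000043263, chr1:173630917-173647928, plus strand), which newer annotation calls Ifi209, came next. It had 768.1, 1044 and 851.1 normalized counts in control mimic replicates 1, 2 and 3. The counts were 386.3, 594.9 and 657.8 in replicates 1, 2 and 3 of the miR-19a/19b mimic group. These groups did not overlap either, and miR-19a/19b mimic replicate 1 was the lowest heart, as it was for 7 of the 8 members. The log2 difference of Pyhin1 was -0.72 (standard error 0.20, unadjusted p = 0.00601, adjusted p = 0.954 with limma), and it was -0.49 without that heart.

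Ifi204 (ENSMUSG00000073489, chr1:173747293-173766943, minus strand) encodes p204, a nuclear DNA-binding protein that also passes cytosolic DNA signals to STING. Its normalized counts were 1803, 2241 and 1932 in control mimic replicates 1, 2 and 3. In replicates 1, 2 and 3 of the miR-19a/19b mimic group they were 1178, 1546 and 1451. All 3 of the latter were below all 3 of the former, and the mean was at 69.9% of the control mean. The log2 difference was -0.52 (standard error 0.13, unadjusted p = 0.00374, adjusted p = 0.886 with limma), and it kept an unadjusted p under 0.05 in all 6 fits that left out a heart. Of the 8 members, Ifi204 followed the mean of the members over the 6 hearts most closely, with a root mean square deviation of 0.046 on the log2 scale.

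Mndal, Mnda and Ifi203 overlap in place on the minus strand. Mndal spans chr1:173857220-173942491 in the table, Mnda (chr1:173896345-173913046) lies within that span, and Ifi203 (chr1:173920407-173942672) overlaps it. Their log2 differences were -0.43, -0.43 and -0.40. Mnda, called Ifi211 in newer annotation, bears the name of the human myeloid cell nuclear differentiation antigen. It had 904.1, 1015 and 895.0 normalized counts in control mimic replicates 1, 2 and 3, and 540.1, 794.9 and 774.5 in replicates 1, 2 and 3 of the miR-19a/19b mimic group. The groups were apart for Mnda, with miR-19a/19b mimic replicate 1 well under the other hearts of its group. Mndal, a relative of Mnda, had 1050, 1335 and 1324 in control mimic replicates 1, 2 and 3 and 796.2, 1000 and 957.8 in replicates 1, 2 and 3 of the miR-19a/19b mimic group. Ifi203 had 1411, 1844 and 1727 in the control mimic hearts and 1068, 1470 and 1244 in the miR-19a/19b mimic hearts, in the same order. Mndal did not overlap between the groups, whereas miR-19a/19b mimic replicate 2 lay above control mimic replicate 1 for Ifi203. The unadjusted p-values from limma were 0.0113 for Mndal, 0.0208 for Mnda and 0.0238 for Ifi203, each with an adjusted p of 0.9996. These calls rested on single hearts more than those above. The unadjusted p stayed under 0.05 in 5 of 6 fits for Mndal, in 4 for Mnda and in 3 for Ifi203. Without miR-19a/19b mimic replicate 1 the difference of Mnda was -0.25 (unadjusted p = 0.0595) and that of Ifi203 was -0.29 (unadjusted p = 0.0877), both with limma.

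Aim2 (ENSMUSG00000037860) lies on the plus strand at chr1:173350879-173466040, at one end of the cluster. Its control mimic replicates 1, 2 and 3 were close together, at 282.9, 269.4 and 284.0 normalized counts. The miR-19a/19b mimic replicates 1, 2 and 3 were spread more widely, at 179.7, 213.4 and 286.1. Replicates 1 and 2 of the miR-19a/19b mimic group lay below all control mimic hearts, while replicate 3 was the highest of the 6. The log2 difference was -0.33 (standard error 0.17, unadjusted p = 0.0903, adjusted p = 0.9996 with limma), so Aim2 did not pass even the unadjusted threshold. Without miR-19a/19b mimic replicate 3, the heart that stood apart from its group, it was -0.51 (unadjusted p = 0.00246, adjusted p = 0.0703 with limma). With miR-19a/19b mimic replicate 1 left out, the other heart that stood apart, it was -0.17 (unadjusted p = 0.316 with limma).

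Ifi205 (ENSMUSG00000054203, chr1:174011998-174031810, minus strand), at the other end of the cluster, was the only one of the 8 with a higher mean in miR-19a/19b mimic hearts. It had 344.8, 375.7 and 394.2 normalized counts in control mimic replicates 1, 2 and 3. Its counts were 413.1, 569.1 and 301.7 in replicates 1, 2 and 3 of the miR-19a/19b mimic group. The first and second of the latter were above every control mimic heart and the third was below every one of them. The log2 difference of 0.16 (standard error 0.21, unadjusted p = 0.464, adjusted p = 0.9996 with limma) did not pass, and its sign depended on single hearts. It was 0.39 (unadjusted p = 0.0192, adjusted p = 0.216) without miR-19a/19b mimic replicate 3 and -0.07 without replicate 2.

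Within each library, Ifi205 can be set against Ifi204, which removes the library's scaling. The log2 ratio of Ifi205 to Ifi204 was -2.38, -2.57 and -2.29 in control mimic replicates 1, 2 and 3. It was -1.51, -1.44 and -2.26 in replicates 1, 2 and 3 of the miR-19a/19b mimic group. Ifi205 therefore took a larger part relative to Ifi204 in miR-19a/19b mimic replicates 1 and 2, while replicate 3 differed little from the control mimic hearts. For Gm4955 the log2 ratio to Ifi204 was -3.19, -3.24 and -3.10 in the control mimic hearts and -4.19, -4.00 and -3.68 in the miR-19a/19b mimic hearts, in the order of the replicates. Gm4955 was thus lower relative to Ifi204 in each miR-19a/19b mimic heart. These ratios were picked with the values known, and an exact permutation test of 3 hearts against 3 cannot give a p below 0.1, so they are given without a test.

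**Figure D3:**
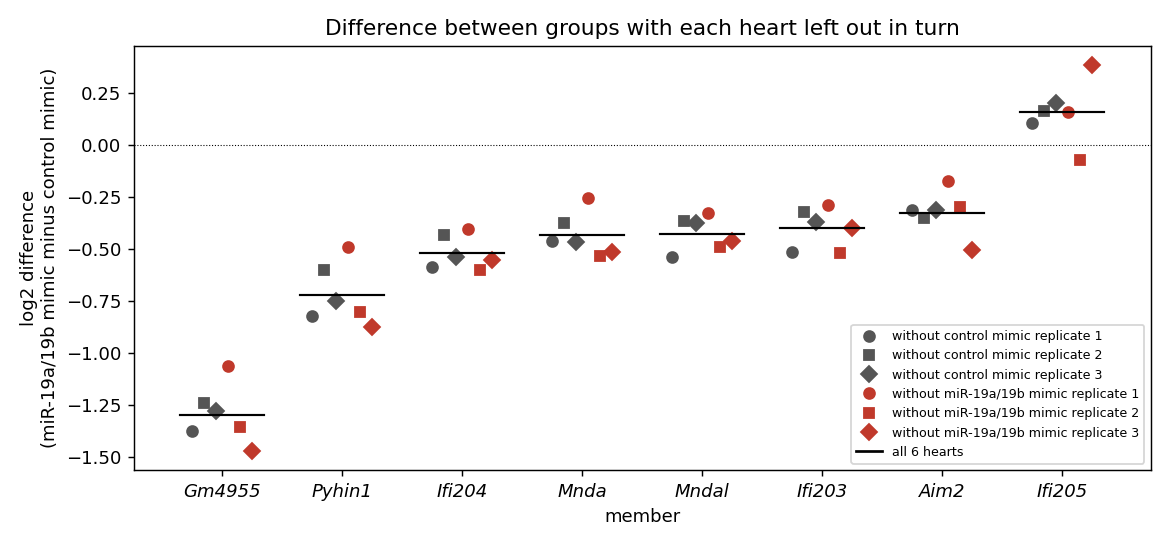
Log2 difference (y axis, miR-19a/19b mimic minus control mimic) of the 8 members with all 6 hearts (black line) and with each heart left out in turn (grey, a control mimic heart; red, a miR-19a/19b mimic heart). Gm4955 stays between -1.47 and -1.07 and Ifi205 crosses 0, from -0.07 to 0.39.

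The counts over the members also depended on the hearts that stood apart. Without miR-19a/19b mimic replicate 3, 3 of the 8 members were called as lower at an adjusted p under 0.05 in limma, where 0.774% of all genes were. They were Gm4955 (adjusted p = 0.00874), Pyhin1 (adjusted p = 0.0286) and Ifi204 (adjusted p = 0.0491). In that fit 7 of 8 members were lower at an unadjusted p under 0.05, against 6.08% of all genes. Without miR-19a/19b mimic replicate 1, the heart with skeletal muscle genes, the number was 4 of 8, against 2.44% of all genes, with a median log2 difference of -0.31. It was also 4 of 8 without control mimic replicate 2, the highest heart for 6 of the 8 members (1.75% of all genes), and without control mimic replicate 3 (2.1% of all genes).

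The table holds 5 further genes of the family. Pydc4, also called Ifi213, had 404.5, 560.2 and 486.7 normalized counts in control mimic replicates 1, 2 and 3 and 187.2, 291.8 and 304.3 in replicates 1, 2 and 3 of the miR-19a/19b mimic group. Pydc3, also called Ifi208, had 128.2, 182.5 and 111.2 in the control mimic hearts and 40.9, 79.4 and 74.3 in the miR-19a/19b mimic hearts. Both were without overlap, with log2 differences of -0.91 (unadjusted p = 0.00158) and -1.13 (unadjusted p = 0.0035) in limma. BC094916, also called Ifi214, was rare, with 9.95, 15.6 and 12.2 normalized counts in the control mimic hearts and 7.53, 3.09 and 6.92 in the miR-19a/19b mimic hearts. AI607873, also called Ifi207, ranged from 1522 to 1974 in control mimic hearts and from 1158 to 1578 in miR-19a/19b mimic hearts, which overlapped. Their log2 differences were -1.04 (unadjusted p = 0.0344) and -0.34 (unadjusted p = 0.0422) in limma. The pseudogene Gm16340, also called Ifi203-ps, was at 148 ± 22.2 and 145 ± 23.2 (mean ± SD), a log2 difference of -0.02 (unadjusted p = 0.904). Altogether 4 of these 5 genes were lower at an unadjusted p under 0.05 in limma, where 2.63% of all genes tested were. In limma 0 of the 5 were called at an adjusted p under 0.05, and their median log2 difference was -0.91. DESeq2 called Pydc4 as lower (adjusted p = 0.0476). The number at an unadjusted p under 0.05 in limma was 2 without control mimic replicate 2, where 1.75% of all genes were lower. It was also 2 without control mimic replicate 3 (2.1% of all genes) and without miR-19a/19b mimic replicate 2 (share over all genes not given).

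**Figure D4:**
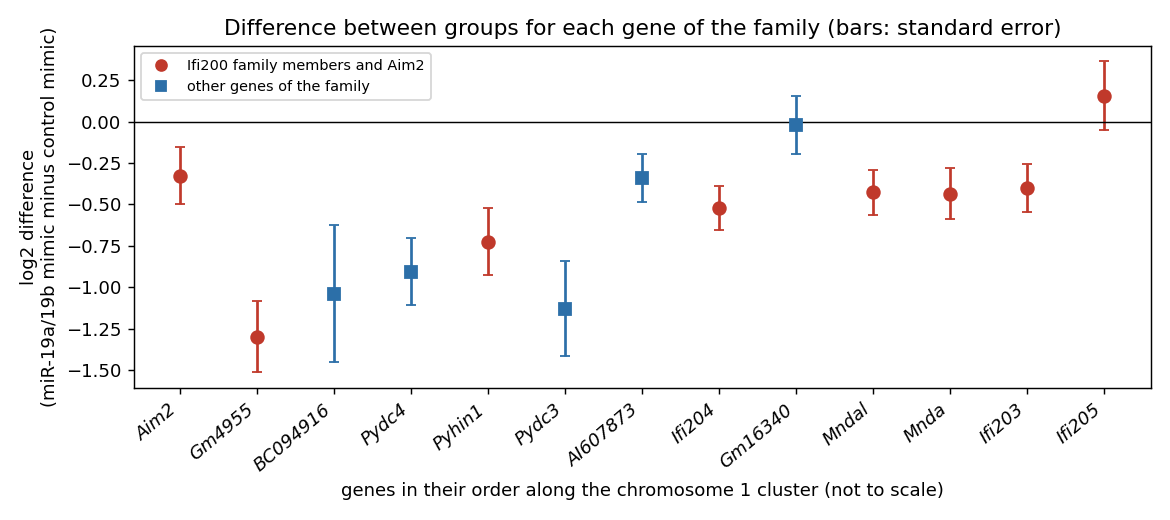
Log2 difference with its standard error (y axis) for the 8 members (red circles) and the 5 other genes of the family (blue squares), in their order along the cluster and not to scale. Values from -0.72 to -1.30 lie together in the stretch from Gm4955 to Pydc3, Aim2 is at -0.33, AI607873 at -0.34, and Ifi204, Mndal, Mnda and Ifi203 are between -0.40 and -0.52, while Gm16340 and Ifi205 lie at or above -0.02.

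Reads cannot always be told apart within this family. Transcripts of Ifi204 and Mnda share a stretch of 423 bases at 99.05% identity, Ifi205 and Mnda share 1101 bases at 97.37%, and Pydc3 and Pydc4 share 289 bases at 98.62%. Among the members with larger differences, Gm4955 shares 448 bases at 97.1% with Pydc4, Pyhin1 shares 790 bases at 97.09% with BC094916, and Ifi204 shares 486 bases at 97.74% with Mndal. Mndal and Ifi203 share 37 exon bases on the same strand and a further stretch of 187 bases at 98.93% identity. The pseudogene Gm16340 shares 266 bases at 98.5% with Ifi203 and 261 bases at 95.4% with Mndal. The stretches given with an identity are those of highest identity for each pair, and the longest shared stretches could be longer. They were 2749 bases at 96.36% for Pydc3 and Pydc4, and 1946 at 96.86% for Pyhin1 and BC094916. For Ifi204 and Mnda they were 1363 at 96.92%, for Gm4955 and Pydc4 1368 at 92.25%, and for Gm16340 and Ifi203 1799 at 96.78%. How reads with more than 1 place were counted is not given in the sources used here, and neither is the use of strand, so differences between such pairs are uncertain.

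Inflammasome genes were read from the same fit, as a list of 12. It holds partners of Aim2 such as Pycard and Casp1, but also the other sensors Nlrp3, Nlrc4 and Nlrp1b, and Il1r1 and Il1rn. All 12 had a lower mean on the log2 scale, where 49.22% of all genes tested did, with a median log2 difference of -0.29. In limma 0 of them were called at an adjusted p under 0.05. Of the 12, 1 passed an unadjusted p of 0.05 as lower in limma, where 2.63% of all genes tested did. The one that passed was Il18, a cytokine that caspase-1 matures, with a log2 difference of -0.53 (unadjusted p = 0.0472, adjusted p = 0.9996 with limma). Il18 had 114.9, 111.3 and 107.4 normalized counts in control mimic replicates 1, 2 and 3 and 64.5, 62.9 and 110.6 in replicates 1, 2 and 3 of the miR-19a/19b mimic group. The last of these lay within the range of the control mimic hearts, and for Aim2 the same heart lay above them. The adaptor Pycard was at 214 ± 17.3 in control mimic and 210 ± 57.3 in miR-19a/19b mimic hearts (mean ± SD), and Casp1 at 315 ± 46.8 and 307 ± 47.1. Differences in Pycard and Casp1 were smaller than the spread between hearts (unadjusted p of 0.773 and 0.812 in limma). Il1b, the main cytokine product of inflammasomes, ranged from 70.3 to 213.3 in control mimic hearts and from 38.7 to 138.3 in miR-19a/19b mimic hearts, which overlapped.

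Other routes of DNA sensing were read in the same way. Of 10 genes listed, 9 were matched in the table. Of these, 7 were lower on the log2 scale, where 49.22% of all genes tested were, and the median log2 difference of the 9 was -0.15. Zbp1, a sensor of Z-form nucleic acids that interferon induces, had 832.2, 944.7 and 741.8 normalized counts in control mimic replicates 1, 2 and 3 and 276.5, 553.6 and 485.8 in replicates 1, 2 and 3 of the miR-19a/19b mimic group. Its groups were apart, with a log2 difference of -0.99 (unadjusted p = 0.00238, adjusted p = 0.839 with limma). Samhd1, which depletes deoxynucleotides, was lower by a log2 difference of -0.33 at an unadjusted p of 0.0499. Mb21d1, which encodes the DNA sensor cGAS, and Tmem173, which encodes STING, had log2 differences of -0.21 and -0.15 (unadjusted p of 0.233 and 0.373 in limma). 0 of the 9 were called at an adjusted p under 0.05.

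The interferon pathway upstream of the family was described by 16 genes, of which 15 had a mean of at least 1. Ifnb1 had reads in control mimic replicate 2 alone and is below the threshold over all hearts, and Ifng had between 0.934 and 2.06 normalized counts in each heart, so the ligands are near the limit of these libraries. The receptor chains and kinases (Ifnar1, Ifnar2, Ifngr1, Ifngr2, Jak1, Jak2 and Tyk2) did not pass an unadjusted p of 0.05, with log2 differences from -0.21 to 0.03. At an unadjusted p under 0.05 in limma, 4 of the 15 genes were lower, where 2.63% of all genes tested were. They were the transcription factors Stat2, Irf9 and Irf7 and the feedback inhibitor Usp18. Stat2 and Irf9 act together in the response to type I interferon. Stat2 had 1850, 2204 and 2028 normalized counts in control mimic replicates 1, 2 and 3 and 1102, 1438 and 1523 in replicates 1, 2 and 3 of the miR-19a/19b mimic group. Its groups did not overlap, and its log2 difference was -0.59 (unadjusted p = 0.0022, adjusted p = 0.815 with limma). The log2 differences were -0.33 for Irf9, -0.73 for Irf7 and -0.84 for Usp18, with unadjusted p-values from 0.00189 to 0.0177. In limma 0 of the 15 were called at an adjusted p under 0.05, and the median log2 difference was -0.16. Without miR-19a/19b mimic replicate 3, all 16 genes of this list were tested and 8 were lower at an unadjusted p under 0.05 in limma. In that fit 6.08% of all genes were.

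The mean log2 deviation of the 8 members over the 6 hearts was 0.11, 0.36 and 0.27 in control mimic replicates 1, 2 and 3 and -0.53, -0.07 and -0.14 in replicates 1, 2 and 3 of the miR-19a/19b mimic group. Among 11596 genes outside the family with a mean of at least 100, the genes closest to this pattern by root mean square deviation were Rnf213 (0.026), Gm20559 (0.059), H2-T23, Parp9, Stat2, Sp110, Samd9l and Rsad2 (0.070). Their log2 differences were between -0.59 and -0.43. Rnf213 had 4602, 5678 and 5192 normalized counts in the control mimic hearts and 2891, 4045 and 3833 in the miR-19a/19b mimic hearts, in the order of the replicates. The distance of the members from their own mean ran from 0.046 for Ifi204 to 0.421 for Gm4955 and 0.434 for Ifi205. This is a likeness over 6 hearts of 2 groups, and genes that differ between the groups by a like amount are close by construction.

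Genes that mark leukocytes were read beside the members, since the family is known for its expression in these cells. The pan-leukocyte markers, 5 of 5 detected, summed to between 16180 and 19520 normalized counts in control mimic hearts and between 12250 and 19080 in miR-19a/19b mimic hearts. As a share of the control mimic mean, the sum was 70.5%, 77.7% and 109.8% in replicates 1, 2 and 3 of the miR-19a/19b mimic group, where the sum of the members was 61.0%, 82.9% and 76.3%. The sums were thus low together in replicates 1 and 2, while in replicate 3 the markers lay within the range of the control mimic hearts and the members did not. At an unadjusted p under 0.05 in limma, 0 of the 5 markers were lower with all hearts, where 2.63% of all genes were. Without replicate 3, 5 of the 5 were lower, where 6.08% of all genes were.

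The macrophage and monocyte markers, 12 of 12 detected, summed to 63610 to 72140 in control mimic hearts and 49010 to 77420 in miR-19a/19b mimic hearts. Most of these sums came from Lyz2, at 36540 to 41760 in control mimic hearts and 28700 to 48250 in miR-19a/19b mimic hearts. Of the 12, 10 were lower on the log2 scale, where 49.22% of all genes tested were. At an unadjusted p under 0.05 in limma 3 were lower, where 2.63% of all genes were. They were Ly6c2, Ccr2 and Plac8, which mark inflammatory monocytes, with log2 differences of -1.78, -0.53 and -0.92. Without miR-19a/19b mimic replicate 3, 9 of the 12 passed as lower, against 6.08% of all genes. The summed markers of NK, T and dendritic cells did not overlap between the groups. NK cell markers (5 of 5 detected) summed to 161.6 to 284.0 in control mimic hearts and 89.3 to 135.1 in miR-19a/19b mimic hearts, and T cell markers (7 of 7) to 217.7 to 317.2 and 168.0 to 193.6. Dendritic cell markers (6 of 6) summed to 715.6 to 740.5 and 631.9 to 684.6. Of these 6, 4 were lower on the log2 scale, where 49.22% of all genes tested were. Zbtb46, the most abundant, had means of 420.6 in control mimic and 422.2 in miR-19a/19b mimic hearts, and Clec9a had 98.6 and 111.0. At an unadjusted p under 0.05 in limma, 3 of the 5 NK cell markers, 2 of the 7 T cell markers and 3 of the 6 dendritic cell markers were lower. Over all genes tested that share was 2.63%. B cell markers (5 of 5) ranged from 158.8 to 184.6 and from 130.2 to 249.0, and neutrophil markers (6 of 6, with Ly6g at 0 in a heart of each group) from 1525 to 1838 and from 735.9 to 2389, both with overlap. The part of these cells in the difference of the members was not tested.

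**Figure D5:**
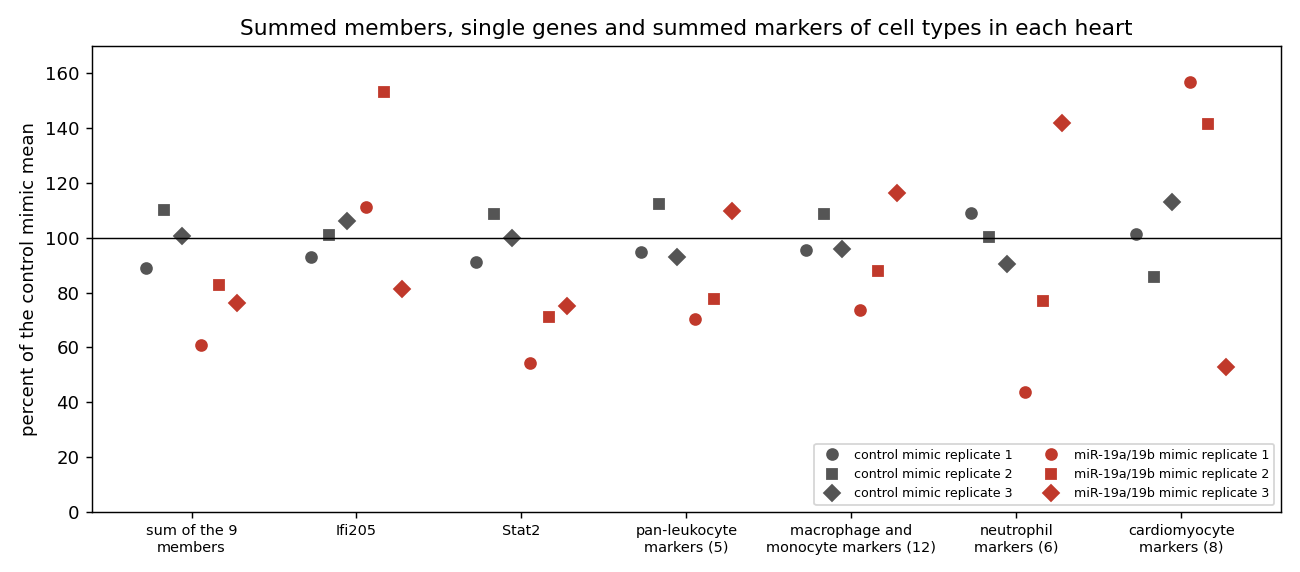
Percent of the control mimic mean (y axis) in each heart for the sum of the 9 members, for Ifi205 and Stat2, and for summed markers of cell types (grey, control mimic; red, miR-19a/19b mimic; circle, square and diamond for replicates 1, 2 and 3). In miR-19a/19b mimic replicate 3 the members are at 76.3% and Stat2 at 75.1%, while pan-leukocyte markers are at 109.8% and neutrophil markers at 142.0%. Not all leukocyte markers are high in that heart. Those of NK, T and dendritic cells, which are not drawn, are at 52.35%, 71.8% and 86.7% there.

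The promoters of the family were searched on both strands for GAAA followed by a second GAAA after a gap of 2 bases, the core of the interferon-stimulated response element. The RefSeq table (GRCm38.p6) held promoters, from 250 bases before to 50 after the gene start, for 8 of the 9 members and 4 of the 5 other genes, and Ifi204 and Gm16340 had no entry. The core was found in 5 of the 8 members (Gm4955, Mndal, Mnda, Ifi203 and Ifi205) and in 4 of the 4 other genes, where 3.993% of 27025 genes with a promoter held it. The genes are copies of one another, so their matches are not independent. The windows below, of 50 bases on the strand of each gene, are shown to give the core and its surroundings in genes with different log2 differences between the groups. Capitals mark the core, and its position is counted from the gene start in RefSeq as 0. That start can differ from the gene coordinates given above. The Mndal window, for example, lies within the span given above for Mndal.
Gm4955, chr1:173491329-173491378 (minus), core at position -40: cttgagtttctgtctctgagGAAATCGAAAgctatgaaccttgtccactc
Pydc4, chr1:173599316-173599365 (minus), core at position -73: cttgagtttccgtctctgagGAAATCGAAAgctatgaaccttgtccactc
Mndal, chr1:173880194-173880243 (minus), core at position -36: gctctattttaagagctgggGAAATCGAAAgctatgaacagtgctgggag
Mnda, chr1:173913054-173913103 (minus), core at position -37: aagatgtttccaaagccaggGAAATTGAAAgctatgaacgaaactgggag
Ifi205, chr1:174031860-174031909 (minus), core at position -134: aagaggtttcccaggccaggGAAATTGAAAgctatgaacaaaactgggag
Pyhin1, chr1:173630760-173630809 (plus), near match at position -79: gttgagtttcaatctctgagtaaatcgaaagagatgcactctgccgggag

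The Gm4955 window differed from that of Pydc4 at 1 of 50 bases, and the window of Pydc3 was the same as that of Pydc4. From the windows of Mndal, Mnda and Ifi205 that of Gm4955 differed at 21, 25 and 25 of 50 bases. Ifi203 held the same 50 bases as Mndal in its second RefSeq promoter, and no core in its first. Mndal also has a second RefSeq promoter, with a core on the other strand at position -54. The windows of Mnda and Ifi205 differed at 4 of 50 bases, the log2 differences of these genes were -0.43 and 0.16, and the core of Ifi205 lay farther from the gene start in RefSeq, with a second core on the other strand at position 23. Both carry C6T within the core, counted from its first base against the letters in Gm4955. Pyhin1 carries G1T and so is not counted as a match. A second motif, TTCNNNGAA, the core of the gamma-activated site of interferon-responsive genes, which reads the same on both strands, was in 1 of the 12 promoters, that of Ifi202b, against 9.554% of all genes. These are descriptions of letters within the windows and say nothing on binding.

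The longest annotated 3′ UTR of each member (GENCODE M21, GRCm38) was searched for matches to the seed of miR-19a/19b printed above. The 8-mer searched was TTTGCACA, and the 7-mers, both within it, were TTTGCAC and TTGCACA. Of the 9 members, 1 held a match, Ifi203, with TTGCACA (in capitals) at position 1125 of its 2129 bases.
Ifi203, chr1:173921394-173921422 (minus): gaaacttcctcTTGCACAgcataaaagga
Among the 15867 genes tested that have a 3′ UTR, 19.35% held a match of any of these kinds, with a median UTR of 1261 bases. The UTRs of Gm4955, Mnda, Ifi205, Ifi202b, Ifi204 and Mndal were shorter, at 206, 254, 246, 235, 307 and 541 bases. Those of Aim2 and Pyhin1 had 1022 and 1917. A shorter UTR has fewer places for a match, so the share is not a like comparison for these members. Gm4955, Pyhin1 and Ifi204, the members with the largest differences, held none in this annotation, and Ifi203 had a log2 difference of -0.40. Of the other genes of the family, none of the 4 with a 3′ UTR held a match.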

How the data were processed

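Per the labels, ventricular RNA of 6 hearts, 3 per group, was sequenced after poly-A selection, and groups and replicate numbers were taken from the titles. The authors aligned reads with STAR (2.5.1b) and counted them with HTSeq (0.6.0), and their processing notes also name DESeq2 (1.10.1) and the build mm9, while the study's methods name edgeR for differential expression. The deposited signal is a count divided by a size factor. The file's coordinates match GENCODE M21 on GRCm38 (99.94% of 25884 genes on the same chromosome, 82.74% with equal start and end). The authors' own fold changes and p-values were not used.

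In each library 100% of values came out as whole reads (within 0.01 reads) after division by the value of 1 read. The test was limma (3.58.1, R 4.3.3) on log2(normalized count + 1), which understates folds of low genes. Alternatives were edgeR (4.0.16) and DESeq2 (1.42.0) on those reads, limma-voom, TMM factors, a pseudocount of 0.1, other filters, the replicate number as a block, and each heart left out in turn. Counts of the other lists without each heart were added after seeing the data. Scripts were tested on simulated data. The members and lists were chosen with earlier results of these data known. Named were all family genes, up to 5 genes per other list by unadjusted p with some sensors and adaptors, and the 8 genes most alike, and 1 item was left out of the lists and is not reported. Nothing in the sources used here says how each heart was handled beyond its group, so p-values measure the spread between these 6 hearts.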

Additional observations from a re-analysis of the deposited data

How the results depend on the processing

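The direction of 7 of the 8 members was kept under every alternative run, and Ifi205 alone changed sign, to -0.07 when miR-19a/19b mimic replicate 2 was left out. The median log2 difference of the members stayed between -0.53 and -0.31. With DESeq2, 28 genes were called as lower, 1 as higher and 1 member was called, where limma, limma-voom and edgeR called 0. With each heart left out in turn, 0 to 164 genes were called as lower, 0 to 383 as higher and 0 to 3 members were called, the highest of each in the fit that lacked miR-19a/19b mimic replicate 3, and the cause was not tested. The members lower at an unadjusted p under 0.05 numbered 4 to 7 in those fits and 6 in all others. Same-numbered hearts did not deviate together (r of -0.0085, -0.0213 and -0.115 over genes), and with the replicate number as a block 0 genes and 0 members were called and 6 members stayed lower at an unadjusted p under 0.05. Per kilobase of the longest transcript, levels in control mimic hearts were 867 for Ifi204, 610 for Mndal and 442 for Ifi203, which placed Mndal above Mnda and Ifi203 above Pyhin1. Depth does not limit the 8 members, but it does limit Ifi202b, BC094916 and the interferons.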

Other observations

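Genes around the cluster were read as a comparison of place. The family spans 680 kb on chromosome 1, and 23 other genes with a mean of at least 1 lie within it or within 1 Mb of its ends. Of these, 10 were lower on the log2 scale, where 49.22% of all genes tested were, and the median log2 difference was 0.06. At an unadjusted p under 0.05 in limma, 3 were lower and 0 higher, where 2.63% of all genes tested were lower and 1.39% higher. The 3 were Slamf9, Igsf9 and Gm7804, named after their values were seen. Slamf9, a receptor of the SLAM family found on leukocytes, had 456.5, 431.4 and 346.6 normalized counts in control mimic replicates 1, 2 and 3 and 262.5, 284.5 and 293.9 in replicates 1, 2 and 3 of the miR-19a/19b mimic group, without overlap. Its log2 difference was -0.54 (unadjusted p = 0.0029, adjusted p = 0.877 with limma). Gm7804 rested on fewer than 5 normalized counts in every heart.

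The make-up of the family within a heart also varied. Gm4955 took between 2.83% and 2.94% of the summed members in control mimic hearts and between 1.37% and 1.94% in miR-19a/19b mimic hearts. Ifi205 took 4.49% to 5.17% in control mimic hearts, and 8.93%, 9.05% and 5.21% in replicates 1, 2 and 3 of the miR-19a/19b mimic group.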
